A study of Mus musculus with 2 samples.

Results

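The tetraspanin family was followed in perivascular cells of the aorta with and without the family member Kai1 (Cd82). The study calls these cells pericytes (PCs), a name used for the mural cells that wrap small vessels. The family was taken as every gene whose symbol is Tspan followed by a number, together with Cd9, Cd37, Cd53, Cd63, Cd81, Cd82, Cd151, Upk1a, Upk1b, Prph2 and Rom1. This gave 31 genes of the 20211 symbols measured. The data are total RNA from primary perivascular cells (PVCs) of the aorta of C57BL/6 background mice, cultured in DMEM with 10% FBS per the labels (the study's methods give a higher serum content), with 1 WT library and 1 Kai1-/- (Kai1 KO) library. The labels give neither the age and sex of the mice, nor how many were pooled, nor how the knockout allele was made. With 1 library per genotype there is no replicate check, so no p-value is given, and a difference between the libraries includes any difference between animals, cultures and preparations. The values are RPKM, read counts divided by transcript length and by the mapped reads of the library, so that levels can be set side by side between genes.

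Tetraspanins are small proteins that cross the cell membrane 4 times and carry a large extracellular loop. They bind integrins, immunoglobulin-type proteins, proteases and each other laterally, which gathers these partners into tetraspanin-enriched patches of the membrane, and several of them are sorted into exosomes. KAI1 (CD82), the product of Cd82, is a member known as a suppressor of metastasis.

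The perivascular label was checked against marker genes. Acta2, the smooth muscle actin, was measured at 3823 RPKM in WT and 2580 RPKM in Kai1-/-, and the pericyte markers Pdgfrb and Cspg4 (NG2) had 44.7 and 15.4 in WT and 31.6 and 8.27 in Kai1-/-. Rgs5, another pericyte marker, was at 0.0630 and 0.233, and Kcnj8 was listed at 0 in WT and at 0.791 in Kai1-/-. Both were more than 2-fold higher in Kai1-/- but averaged under 1 RPKM. Of the 12 perivascular markers listed, 4 were more than 2-fold lower in the Kai1-/- library and 0 more than 2-fold higher among the 7 with an average of 1 RPKM or more, beside 7.81% and 7.98% of all such genes. Of these 4, Mcam (4.90 and 0.264) and Myh11 (2.96 and 0.346) passed that filter through their WT values. The summed RPKM of the 12 was 4646 in WT and 2978 in Kai1-/-. The summed RPKM over 16 leukocyte markers was 43.2 in WT and 21.4 in Kai1-/-, and over 12 endothelial markers 4.80 and 8.41. Single genes weigh on these sums. The leukocyte marker Cd14 was at 1.98 and 10.3. The endothelial marker Egfl7 was at 2.28 and 7.39, and no other of the 12 was higher in Kai1-/-. Ptprc (CD45), which defines leukocytes, was at 0.0407 and 0.00697, and the endothelial Cdh5 was at 0.0267 in WT and listed at 0 in Kai1-/-. The Y-linked Ddx3y reached 6.56 RPKM in WT but 0 in Kai1-/-, so that the sex of the cells and the genotype cannot be told apart.

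The 31 genes lie on 15 chromosomes, and their coding parts are alike in build. The median coding length was 759 bases, with a range of 612 to 1053, and 24 of the 31 genes have 7 or 8 coding exons in the transcript chosen here. Cd82 spans chr2:93259268-93303297 of the mouse build NCBI37 on the minus strand, with 9 exons of which 8 are coding. Its nearest family member is Tspan18, on the same strand at chr2:93041917-93174663, 84.6 kb away with 0 annotated coding genes between them. Cd151 and Tspan4 are 3.76 kb apart on chromosome 7, Tspan32 and Cd81 are 33.1 kb apart on the same chromosome, and Tspan11 and Tspan9 are 8.36 kb apart on chromosome 6.

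The 250 bases upstream of the outermost annotated start are shown for Cd82 and its neighbour Tspan18, which were both lower in the Kai1-/- library, for Tspan17, the most abundant member of the family that was more than 4-fold lower, and for Cd9, which had the highest ratio of Kai1-/- to WT among the family members with an average of 1 RPKM or more. Each is read 5′ to 3′ on the strand of the gene from build NCBI37, and capitals mark GC boxes, the letters GGGCGG or their complement CCGCCC, which are known as binding sites of SP1-type factors. The windows are chr2:93303298-93303547 (minus strand), chr2:93174664-93174913 (minus), chr13:54890488-54890737 (plus) and chr6:125444810-125445059 (minus), and none holds an annotated exon.
Cd82: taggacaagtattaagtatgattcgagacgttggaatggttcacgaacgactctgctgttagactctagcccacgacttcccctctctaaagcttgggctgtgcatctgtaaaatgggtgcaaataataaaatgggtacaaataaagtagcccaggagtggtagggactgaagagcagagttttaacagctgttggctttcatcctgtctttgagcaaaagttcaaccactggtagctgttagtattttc
Tspan18: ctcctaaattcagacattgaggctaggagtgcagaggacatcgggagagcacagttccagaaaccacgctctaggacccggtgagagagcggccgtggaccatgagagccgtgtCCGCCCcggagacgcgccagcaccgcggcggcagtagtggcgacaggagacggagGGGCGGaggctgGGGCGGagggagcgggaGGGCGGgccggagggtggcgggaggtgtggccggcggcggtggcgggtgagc
Tspan17: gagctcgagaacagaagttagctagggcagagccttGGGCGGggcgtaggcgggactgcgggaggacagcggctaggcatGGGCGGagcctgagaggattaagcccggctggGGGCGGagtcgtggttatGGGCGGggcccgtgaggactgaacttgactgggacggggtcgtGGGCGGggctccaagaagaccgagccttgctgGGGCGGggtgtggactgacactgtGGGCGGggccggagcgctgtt
Cd9: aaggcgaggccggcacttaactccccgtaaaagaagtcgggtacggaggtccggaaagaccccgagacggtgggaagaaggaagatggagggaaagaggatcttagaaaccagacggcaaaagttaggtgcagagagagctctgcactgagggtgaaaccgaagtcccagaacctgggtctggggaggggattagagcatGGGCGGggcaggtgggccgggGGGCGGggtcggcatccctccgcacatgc

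These letters occur 7 times in the window of Tspan17, 4 times in that of Tspan18, 2 times in that of Cd9 and 0 times in that of Cd82, whose other annotated starts lie further into the gene. The TATA box (TATAAA) and the CCAAT box (CCAAT), searched on both strands, occur 0 times in these 4 windows. A GC box stood in 15 of the 31 family windows, or 48.4%, against 42.5% of the 18950 windows read over all genes. Among genes with an average of 1 RPKM or more it stood in 9 of 17 family windows and in 57.5% of all windows. A TATA box stood in 2 family windows and in 11.9% of all, and a CCAAT box in 8 family windows and in 35.7% of all. Among genes with an average of 1 RPKM or more, a TATA box stood in 1 of the 17 family windows and in 6.37% of all, and a CCAAT box in 2 of the 17 and in 36.1% of all. The letters are a description of the windows and not of any factor bound there.

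The family was dominated in both libraries by the same 4 genes. Cd63, a late endosome and exosome protein, had the highest level, at 717 RPKM in WT and 782 RPKM in Kai1-/-. Cd81, a partner of integrins, came next in WT at 389 and was at 235 in Kai1-/-, below Cd151. Cd151, the partner of laminin-binding integrins, had 238 in WT and 267 in Kai1-/-, and Cd9, known for cell fusion and adhesion, had 78.7 and 148. Together these genes made up 80.1% of the summed RPKM of the family in WT and 86.4% in Kai1-/-. The sum itself was 1776 in WT and 1658 in Kai1-/-, or 93.4% of WT. As a share of all RPKM, whose sums differ between the libraries, the family made up 0.201% in WT and 0.134% in Kai1-/-. Cd82 ranked 11th of the family in WT and 15th in Kai1-/-. A level of 1 RPKM or more was found for 20 of the 31 genes in WT and for 16 in Kai1-/-. Over all 20211 symbols these counts were 10058 and 9859. In each library 3 of the 31 were listed at 0, beside 5690 of all symbols in WT and 6902 in Kai1-/-.

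**Figure D1:**
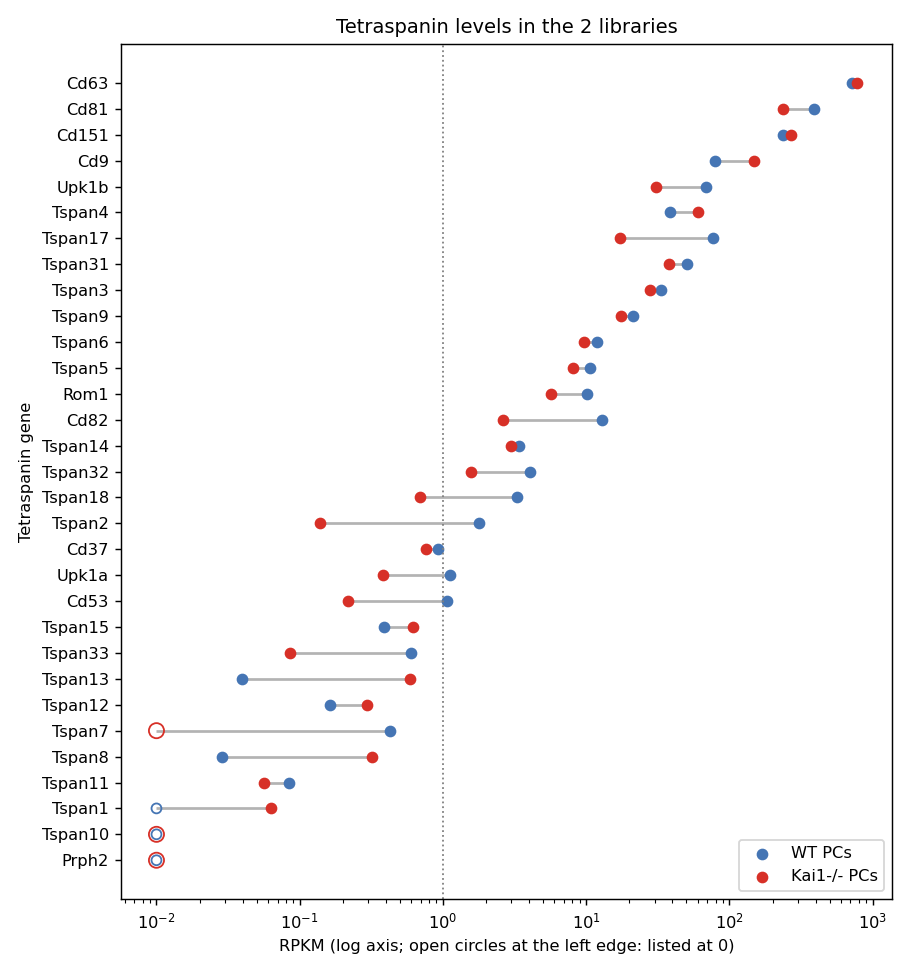
RPKM (log axis) of each of the 31 tetraspanin genes in the WT library (blue) and the Kai1-/- library (red), ordered by the mean of both, with open circles for genes listed at 0 and a dotted line at an RPKM of 1. Cd63, Cd81, Cd151 and Cd9 stand at the top in both libraries, and the widest gaps among genes above an RPKM of 1 in both are those of Cd82 and Tspan17.

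To compare the libraries, log2 ratios of Kai1-/- over WT were taken with a pseudocount of 0.1 RPKM, a scale on which changes of low genes come out too small. Of the 31 genes, 17 had an average of 1 RPKM or more over both libraries. Of these, 5 were more than 2-fold lower in Kai1-/- PCs, namely Cd82, Tspan17, Tspan18, Tspan32 and Upk1b, 12 lay within 2-fold and 0 were more than 2-fold higher. Over all 10068 genes with an average of 1 RPKM or more, 7.81% (786 genes) passed 2-fold on the lower side and 7.98% (803 genes) on the higher side. Without the targeted gene, 4 of 16 were lower. Tspan18 was the only one of the 17 with an RPKM under 1 in a library, so that it passed the filter through its WT value. The median log2 ratio of the 17 genes was -0.37, beside 0.08 over all genes, and 13 of the 17 ratios (12 of 16 without Cd82) were below 0, beside 4522 of all 10068. By level, 2 of the 3 tetraspanins averaging 1 to 5 RPKM were lower, beside 12.3% of all such genes lower and 8.23% higher. Of the 10 averaging 5 to 50 RPKM, 3 were lower, beside 5.33% lower and 7.68% higher of all genes there, and of the 4 above 50 RPKM 0 passed 2-fold in either direction, beside 5.5% lower and 8.34% higher. The balance of calls over all genes depended on the scaling: with both libraries set to the same RPKM sum, 1816 genes (18.0%) were lower and 286 (2.84%) higher, the median of all genes moved to -0.39, and 7 of the 17 tetraspanins were lower and 0 higher.

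**Figure D2:**
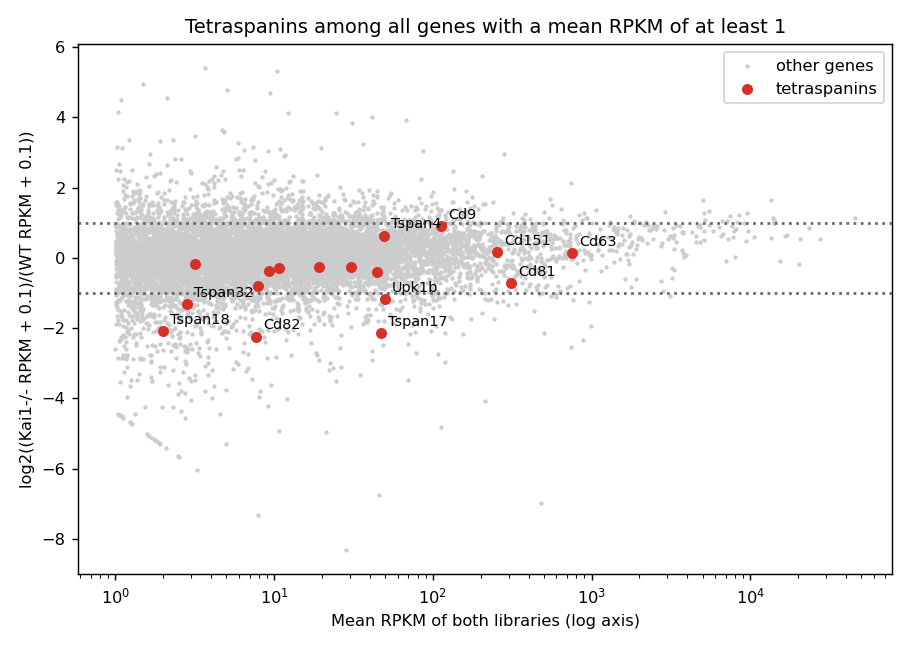
Log2 ratio of Kai1-/- to WT after adding 0.1 RPKM against the mean RPKM (log axis) for the 10068 genes with an average of 1 RPKM or more, with the 17 tetraspanins in red and dotted lines at 2-fold. Cd82, Tspan17, Tspan18, Tspan32 and Upk1b lie below the lower line, and the most abundant members lie between the lines.

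Cd82 itself was the check of the genotype. Its RPKM was 12.8 in WT PCs and 2.62 in Kai1-/- PCs, so that 20.5% of the WT level remained, a log2 ratio of -2.25. The reads behind the values were estimated from the steps between low RPKM values, at about 614 in WT and 113 in Kai1-/-, which gives a 95% interval of 16.5 to 24.9% of WT. This exact interval, like those that follow, covers counting error only. A ratio lower than that of Cd82 was found in 1.72% of the genes with an average of 1 RPKM or more. The values are 1 per gene, so they do not show which exons the remaining reads come from.

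Tspan18, the neighbour of Cd82 on chromosome 2, is a regulator of the calcium channel ORAI1 in endothelial cells. Its RPKM was 3.29 in WT and 0.696 in Kai1-/-, or 21.2% of WT, with an interval of 16.0 to 27.6%. Its ratio was -2.09 on the log2 scale. That of Tspan17, on chromosome 13, was -2.15, between the ratios of Tspan18 and Cd82 (-2.25). The counting intervals of these ratios overlap. With a pseudocount of 1 RPKM the ratio of Tspan18 was -1.34. The endothelial markers Pecam1, Tek and Erg were at 0.413, 0.409 and 0.302 in the WT library and listed at 0 in Kai1-/-. Of the 12 endothelial markers 3 were at 0 in WT and 10 in Kai1-/-, beside 5690 and 6902 of all 20211 symbols. Cdh5, Tie1 and Vwf, at 0 in Kai1-/- only, had an estimated 3, 2 and 1 reads in WT. Egfl7, with the highest level among these markers, was at 2.28 in WT and 7.39 in Kai1-/-. Flt1, the only other one with an average of 1 RPKM or more, was at 1.23 and 1.01. Its interval of 67.9 to 101% of WT includes equal levels. The part of endothelial cells in the lower Tspan18 was not tested.

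Members that partner the protease ADAM10, the TspanC8 group, steer ADAM10 out of the endoplasmic reticulum and toward its substrates, among them Notch receptors. Tspan17 was the most abundant of these 6 genes in WT PCs, with an RPKM of 77.0, and was at 17.3 in Kai1-/- PCs. This is 22.4% of WT (interval 20.5 to 24.4%) and a log2 ratio of -2.15. It ranked 5th of the family in WT and 10th in Kai1-/-. Tspan5 was measured at 10.6 RPKM in WT and 8.13 RPKM in Kai1-/-, or 77.0% of WT, and Tspan14 had 3.38 and 2.98. The interval of Tspan14, 71.8 to 107% of WT, includes equal levels. Tspan15 and Tspan33 stayed under an RPKM of 1 in both libraries, at 0.390 and 0.618 for Tspan15 and at 0.595 and 0.0852 for Tspan33, and Tspan10 was listed at 0 in both. The summed RPKM of the group was 91.9 in WT and 29.1 in Kai1-/-. Adam10 itself was at 7.40 and 7.19.

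The 5 widely expressed members of the tetraspanin web all lay within 2-fold. Cd9 was higher in Kai1-/- PCs, at 188% of WT (interval 178 to 197%) and a log2 ratio of 0.91. Tspan4, a marker of migrasomes, was measured at 38.7 RPKM in WT and 60.0 RPKM in Kai1-/-, or 155% of WT. Cd151, whose gene lies near Tspan4 with Polr2l between them, was at 112% of WT and Cd63 at 109%. Cd81 was lower, at 60.4% of WT (interval 58.8 to 62.0%) and a log2 ratio of -0.73. The ratios of Cd9 and Tspan4 stayed above 0 and that of Cd81 below 0 under each of 4 other scalings. Those of Cd9 and Tspan4 shrank to 0.42 and 0.15 with equal RPKM sums, and to 0.41 and 0.13 with scaling to Gapdh. The ratios of Cd63 (0.13) and Cd151 (0.17) turned to -0.36 and -0.32 with equal RPKM sums. They turned below 0 also with equal upper quartiles and with scaling to Gapdh. Under these 3 scalings Cd81 passed 2-fold, at -1.21 with equal RPKM sums, as did Rom1 at -1.29. Exons of Tspan4 overlap those of Chid1 on the other strand, which was measured at 116 RPKM in WT and 191 RPKM in Kai1-/-, and strand is not stated for these libraries, so that the reads of both genes cannot be told apart where they overlap. Cd37 overlaps Tead2 (8.75 and 11.8 RPKM) in the same way, and Cd151, Cd81, Cd9 and Tspan2 overlap transcripts on the other strand with no value in these data.

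**Figure D3:**
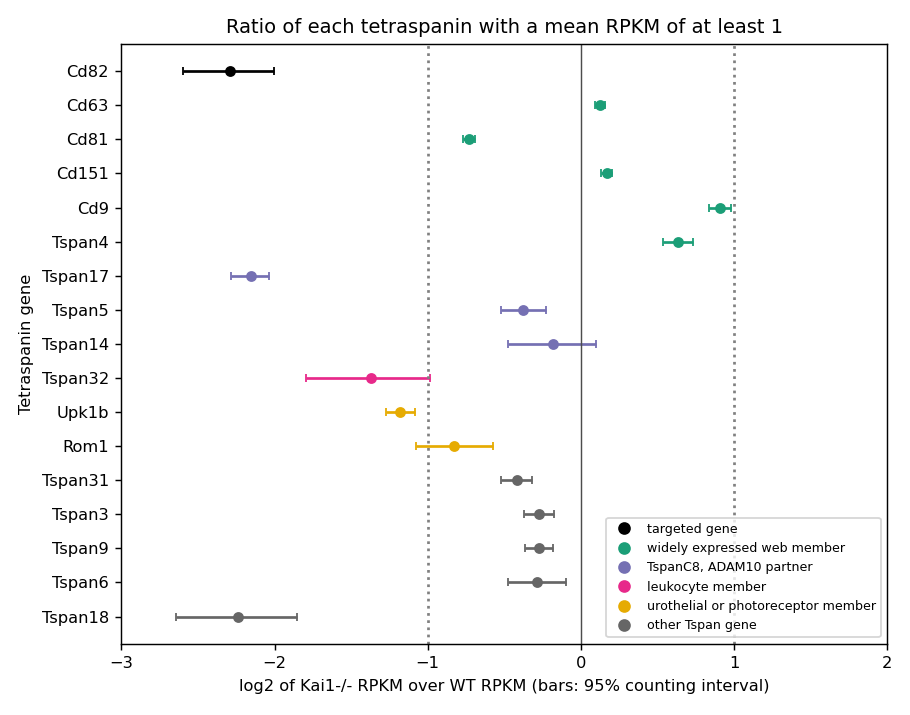
Log2 of the Kai1-/- RPKM over the WT RPKM, with no pseudocount, for the 17 tetraspanins with an average of 1 RPKM or more, coloured by role, with bars for the 95% counting interval and dotted lines at 2-fold. The green web members lie between the dotted lines, while Cd82, Tspan17, Tspan18 and Upk1b lie beyond -1 with their whole intervals.

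Among the leukocyte members, Tspan32, a blood cell tetraspanin, was measured at 4.08 RPKM in WT and 1.57 RPKM in Kai1-/-, or 38.6% of WT (interval 28.8 to 50.6%). With a pseudocount of 1 RPKM its log2 ratio went from -1.32 to -0.98, inside 2-fold. Its neighbour Cd81 had the ratio of -0.73 given above. Cd53, which is found on most white blood cells, was measured at 1.06 RPKM in WT and 0.216 RPKM in Kai1-/-, or 20.3% of WT. Cd37, a B cell tetraspanin, was at 0.923 and 0.768, and its interval of 55.9 to 123% of WT includes equal levels. Of 6 leukocyte markers with an average of 1 RPKM or more, 4 were more than 2-fold lower in Kai1-/-, beside 12.3% of all genes averaging 1 to 5 RPKM and 5.33% of those averaging 5 to 50 RPKM, namely Csf1r (11.7 in WT and 2.66 in Kai1-/-), Tyrobp (10.4 and 2.37), Fcer1g (11.3 and 2.47) and Lyz2 (3.44 and 1.09), and Cd14 was higher (1.98 and 10.3). C1qa, C1qb, C1qc, Cd3e and Emr1 were listed at 0 in both libraries. The part of leukocytes in the lower Tspan32 and Cd53 was not tested, and fewer cells of a type and less RNA per cell cannot be told apart in bulk RNA.

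The urothelial tetraspanin Upk1b was among the more abundant members. Upk1b encodes uroplakin 1b, which forms plaques on the bladder surface together with uroplakin 3. It was measured at 69.1 RPKM in WT and 30.5 RPKM in Kai1-/-, or 44.2% of WT (interval 41.4 to 47.1%) and a log2 ratio of -1.18. Upk1a was at 1.12 and 0.379. Of the other uroplakins, Upk3b, which is also expressed in mesothelium, had 0.975 in WT and 2.81 in Kai1-/-. Upk2 was at 0.101 in WT, with an estimated 2 reads, and listed at 0 in Kai1-/-. Upk3a was listed at 0 in both. Of 7 mesothelial markers, Krt19 had the highest level, 29.3 in WT and 91.3 in Kai1-/-, while Msln was at 0.670 and 0.508 and Wt1 was listed at 0 in WT and at 0.0259 in Kai1-/-. Lrrn4, Krt8 and Krt18 were between 0.0206 and 0.0282 in WT, with an estimated 2, 1 and 1 reads, and listed at 0 in Kai1-/-. The part of mesothelial cells in the level of Upk1b was not tested. Of the photoreceptor tetraspanins, which hold the rim of outer segment discs, Prph2 was listed at 0 in both libraries and Rom1 was measured at 10.1 RPKM in WT and 5.68 RPKM in Kai1-/-, or 56.4% of WT (interval 47.4 to 67.1%).

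The other Tspan genes above an average of 1 RPKM lay within 2-fold, Tspan18 aside. Tspan3 was measured at 33.5 RPKM in WT and 27.7 RPKM in Kai1-/-, Tspan9 had 21.1 and 17.5, and Tspan6 had 11.8 and 9.68, so that these 3 genes were between 82.0 and 82.8% of WT. Tspan31 was at 50.8 and 38.0, or 74.8% of WT. Its exons overlap those of Cdk4 on the other strand, a cell cycle kinase whose RPKM was 178 in WT and 343 in Kai1-/-. In all 4 genes the counting interval lay below 100% of WT, and their log2 ratios, from -0.42 to -0.27, lay within the range that held the central 90% of the genes with a mean RPKM from 5 to 50, -1.04 to 1.16.

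Under a mean RPKM of 1 lay 14 of the 31 genes. Tspan2, a tetraspanin of oligodendrocytes and smooth muscle, was measured at 1.78 RPKM in WT and 0.138 RPKM in Kai1-/-, or 7.77% of WT, with about 225 and 16 reads and an interval of 4.42 to 13.1%. This was the lowest ratio of Kai1-/- to WT in the family among genes with a value above 0 in both libraries. Tspan7, X-linked as is Tspan6, was at 0.429 in WT and listed at 0 in Kai1-/-. Sex and genotype cannot be told apart for these or any other genes here. Tspan13 and Tspan8 were higher in Kai1-/-, at 0.0392 and 0.593 for Tspan13 and at 0.0287 and 0.318 for Tspan8, with an estimated 2 and 1 reads in WT. Tspan12, a co-receptor of Norrin and Frizzled-4 in retinal vessels, was at 0.162 and 0.294, with about 11 and 18 reads, which does not resolve a difference. Tspan11 had 0.0842 and 0.0560, and Tspan1 was listed at 0 in WT and at 0.0634 in Kai1-/-. With no filter on the mean RPKM, 10 of the 31 genes passed 2-fold on the lower side and 2 on the higher side, beside 9.29% and 5.96% of all 20211 symbols.

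The genes whose proteins are known to associate with tetraspanins were listed as a second group of 43, of which 29 had an average of 1 RPKM or more. Of these, 2 were more than 2-fold lower in Kai1-/- PCs, 2 higher and 25 within 2-fold, and their median log2 ratio was -0.14. These shares of 6.90% in each direction stood beside 7.81% and 7.98% of all genes. The lower genes were Icam1, an adhesion receptor for leukocytes, with an RPKM of 6.69 in WT and 0.704 in Kai1-/-, and Fzd4, the Frizzled receptor of Norrin, with 4.34 and 1.73. The higher genes were Kitl, the ligand of KIT, with 0.977 and 2.32, and Upk3b. Icam1, Kitl and Upk3b passed the filter only through the library in which they are high. With equal RPKM sums, 9 of the 29 were lower and 0 higher, beside 18.0% and 2.84% of all genes.

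Itgb1, the shared beta chain of most integrin partners, had the highest level of this group. It was measured at 273 RPKM in WT and 207 RPKM in Kai1-/-, and Itga5, of the fibronectin receptor, had 78.1 and 40.0. Laminin-binding alpha chains were scarce, with Itga3 at 1.44 and 0.973, Itga6 at 0.809 and 0.299 and Itga7 at 0.689 and 0.715. Igsf8, an immunoglobulin-type protein that binds CD9 and CD81 directly, was at 63.6 and 61.7, whereas Ptgfrn, its relative, had a log2 ratio of -0.71. Msn, which links the web to actin, had 166 and 91.8, and Mmp14, a membrane metalloproteinase, had 138 and 83.4. Egfr and Met, growth factor receptors known to associate with KAI1, had log2 ratios of 0.94 and 0.97, just inside 2-fold on the higher side. Without a pseudocount Met, at 1.43 and 2.89 RPKM, was at 202% of WT, and it also passed 2-fold with a pseudocount of 0.01. Adam17, a second protease of the web, was at 6.44 and 6.23, and the vesicle genes Sdcbp, Pdcd6ip and Tsg101 had log2 ratios of -0.05, -0.25 and -0.14.

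**Figure D4:**
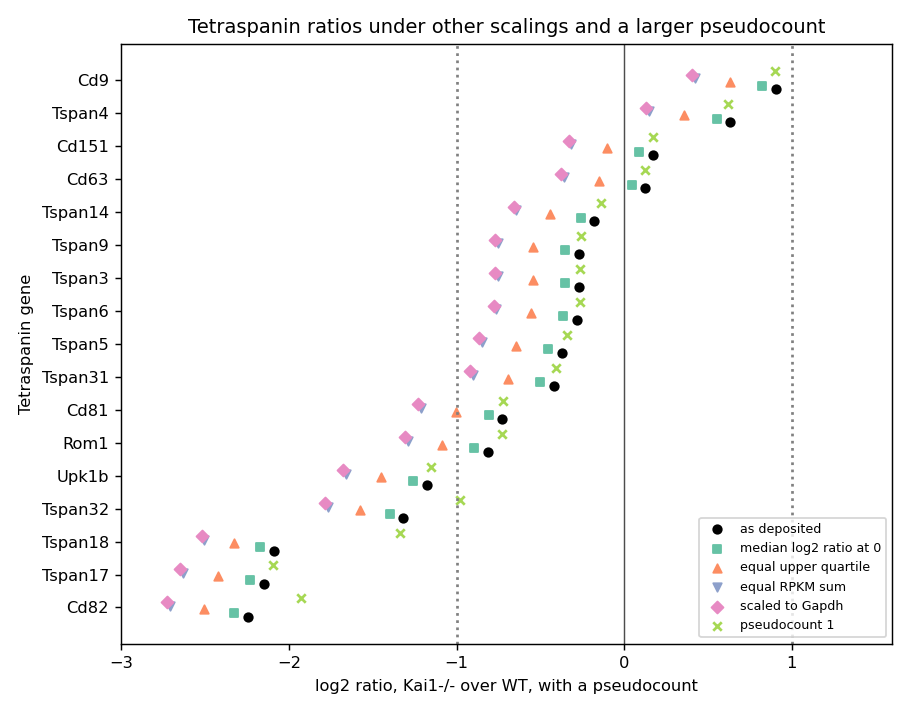
Log2 ratio of Kai1-/- to WT for the 17 tetraspanins under the values as deposited, 4 other scalings of the libraries and a pseudocount of 1 RPKM, with dotted lines at 2-fold. Scaling moved all genes to the left together, most with equal RPKM sums and scaling to Gapdh, and kept Cd82, Tspan17 and Tspan18 farthest to the left.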

How the data were processed

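RNA was sequenced from 1 WT and 1 Kai1-/- library of primary PCs. Per the study's methods and the submitters' notes, the authors aligned reads to mm9 (NCBI37) with TopHat 2.0.9 and Bowtie, with Cufflinks among the tools, and deposited 1 RPKM value per RefSeq gene. Filters, strand and library depth are not given in the sources used here. Both tables held 20462 rows. The 38 that carry no symbol were dropped, and 153 symbols on several rows were averaged.

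The log2 ratio was log2((Kai1-/- RPKM + 0.1)/(WT RPKM + 0.1)), genes were kept at a mean RPKM of at least 1, and a change means more than 2-fold. Reads were estimated after the data were seen, by fitting low values to whole reads, using genes for which 1 transcript, longer than 800 bases, is annotated. This gave about 29500000 WT and 26650000 Kai1-/- reads with a fragment of 200 bases, and 80.5% and 80.2% of these values were whole to within 0.15 reads. Exact (Clopper-Pearson) 95% intervals used these reads and the longest transcript, and are approximate. Positions came from GENCODE M1 on NCBI37. The calls and the read fit were tested on simulated data that hold counting error only. Differences between animals, cultures or preparations were not simulated. Alternatives were pseudocounts of 1 and 0.01, other filters, 4 scalings and summed symbols.

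Every family member with a mean RPKM of at least 1 was named, and partner genes past 2-fold or at a mean RPKM of at least 50; other genes were named after their values were seen. The members and lists were chosen with earlier results of these data known. Python 3.11.15, numpy 2.4.6, pandas 2.3.3, scipy 1.17.1 and matplotlib 3.10.9 were used.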

Additional observations from a re-analysis of the deposited data

How the results depend on the processing

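Of 112 recomputed single-gene ratios of the family members other than Cd82, 62 moved by less than their counting interval and 50 moved further. The log2 ratio of Cd82 was -1.93 with a pseudocount of 1, -2.71 with equal RPKM sums and -2.73 scaled to Gapdh. The count of tetraspanins more than 2-fold lower was 10 without a filter and 3 at a mean RPKM of at least 5, out of 31 and 14 genes, and that of higher ones was 2 without a filter. Their median was -0.27 without a filter, -0.85 with equal sums, -0.64 with equal upper quartiles and -0.87 scaled to Gapdh, while the median of all genes was 0, -0.39, -0.19 and -0.41. Lower and higher genes numbered 1878 and 1205 without a filter, 350 and 511 at a mean RPKM of at least 5, 1816 and 286 with equal sums, 1251 and 447 with equal upper quartiles, and 1856 and 278 scaled to Gapdh. Partner genes lower and higher were 1 and 0 with a pseudocount of 1, 0 and 0 at a mean RPKM of at least 5, 9 and 0 with equal sums or scaled to Gapdh, and 5 and 1 with equal upper quartiles. Without a filter, 5 of 43 partner genes were lower and 2 higher, beside 9.29% and 5.96% of all genes. The other partner counts are out of 29 genes, or out of 20 with the filter set to 5. Beside them, 5.68% of all genes were lower and 5.46% higher with a pseudocount of 1, and 5.37% and 7.84% with the filter at 5. These shares were 18.0% and 2.84% with equal sums, 12.4% and 4.44% with equal upper quartiles, and 18.4% and 2.76% scaled to Gapdh. A filter changes how many genes are counted, and a scaling moves nearly all genes alike. No paired analysis was possible because WT and Kai1-/- have 1 library each, so none could be left out either. Estimated reads limit genes such as Tspan18, with 66 in Kai1-/-, and Tspan2, with 16.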

Other observations

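The TM4SF family has 4 membrane spans as the tetraspanins do but is a separate family by sequence, and it was looked up after the tetraspanin values were seen. Tm4sf1, which is known from endothelial and tumour cells, was measured at 92.6 RPKM in WT and 249 RPKM in Kai1-/-, which is 269% of WT (95% counting interval 262 to 276%) and a log2 ratio of 1.43. This level in Kai1-/- PCs is close to those of Cd81 (235) and Cd151 (267). Of all genes with an average of 1 RPKM or more, 7.98% were more than 2-fold higher. That share was 2.84% with equal RPKM sums. The ratio of Tm4sf1 was not recomputed under the other scalings, which moved the tetraspanin ratios lower. Equal RPKM sums moved the log2 ratio of Cd63 from 0.13 to -0.36, and scaling to Gapdh moved it to -0.38. Shifts of that size would bring Tm4sf1 inside 2-fold. The smaller shifts of Cd63, to -0.15 with equal upper quartiles and to 0.04 with the median ratio set to 0, would not. Tm4sf4 was listed at 0 in WT and at 0.0939 in Kai1-/-, Tm4sf19 was at 0.0320 in WT and listed at 0 in Kai1-/-, and Tm4sf5 and Tm4sf20 were listed at 0 in both. With 1 library per genotype these values have no replicate check.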
